A study of Mus musculus with 6 samples.

Results

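Skeletal muscle transcripts were followed through 10 genes of muscle fibres, fast-fibre forms among them. They were read in RNA from inguinal white adipose tissue (IngWAT), the subcutaneous fat pad of the mouse groin. This pad lies against the muscles of the thigh and the body wall. The 10 genes were chosen by name as transcripts of muscle fibres, namely *Acta1*, *Ckm*, *Mb*, *Myh1*, *Myh2*, *Myh4*, *Tnnt3*, *Tnni2*, *Mylpf* and *Atp2a1*, and all 10 were found among the 46517 genes counted, and among the 14967 genes tested. None of them is specific to slow fibres, so slow-fibre genes were read from a separate list. The RNA came from 3 pools of *Hdac3* floxed mice and from 3 pools of H3atKO mice, which carry the same floxed alleles and lack the histone deacetylase HDAC3 in fat cells through a Cre recombinase driven by the adiponectin promoter (B6:FVB-Tg(Adipoq-cre)1Evdr/J). All mice were of C57Bl6 strain, were kept on chow diet in standard housing and were 5 to 9 months old per the labels, and the study's methods describe male mice of a single age within that range. Each pool joined 500 ng of total RNA from 2 or 3 mice of 1 genotype, so the spread between pools is a spread between groups of mice, and what each single mouse contributed is not given in the sources used here. Gene positions are on GRCm38.

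A muscle fibre contracts when myosin heavy chains of the thick filament pull on actin of the thin filament. Calcium released inside the fibre opens the thin filament through the troponins, and is pumped back by an ATPase of the sarcoplasmic reticulum. Fibres are told apart by the myosin heavy chain that they express. *Myh7* marks slow oxidative fibres, *Myh2* fast oxidative IIa fibres, *Myh1* fast IIx fibres and *Myh4* the fastest and most glycolytic IIb fibres. Fat cells have no sarcomeres. Smooth muscle of blood vessels has its own actin and myosin genes and was read from a separate list.

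The 3 myosin genes stand next to each other on chromosome 11, and the bases before their start sites are shown here because the results turn on which of the 3 was read. Each line gives the 250 bases before the annotated start from RefSeq (GRCm38.p6), 5′ to 3′ on the plus strand, for *Myh1* at chr11:67199852-67200101, *Myh2* at chr11:67170777-67171026 and *Myh4* at chr11:67237562-67237811. Capitals mark the longest stretch that all 3 windows share.
Myh1: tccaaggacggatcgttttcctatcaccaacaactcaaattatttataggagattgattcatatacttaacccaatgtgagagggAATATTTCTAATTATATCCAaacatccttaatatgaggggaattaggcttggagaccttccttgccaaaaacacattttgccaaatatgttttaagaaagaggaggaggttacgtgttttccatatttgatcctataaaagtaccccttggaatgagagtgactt
Myh2: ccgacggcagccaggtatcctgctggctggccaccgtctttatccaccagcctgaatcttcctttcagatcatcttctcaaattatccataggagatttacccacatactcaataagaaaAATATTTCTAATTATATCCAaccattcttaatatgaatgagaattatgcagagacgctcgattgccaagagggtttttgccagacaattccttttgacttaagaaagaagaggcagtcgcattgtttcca
Myh4: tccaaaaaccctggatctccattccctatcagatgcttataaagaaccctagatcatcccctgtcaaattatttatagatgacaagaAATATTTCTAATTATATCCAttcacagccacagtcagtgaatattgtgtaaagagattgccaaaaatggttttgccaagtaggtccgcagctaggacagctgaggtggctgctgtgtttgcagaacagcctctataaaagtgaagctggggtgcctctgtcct
The shared stretch of 20 bases ends 146 bases before the start of *Myh1*, 111 bases before that of *Myh2* and 144 bases before that of *Myh4*, and 3 of 32851 RefSeq windows of this kind hold it on either strand. The window of *Acta1*, the actin of the skeletal thin filament, is shown for comparison, from the minus strand at chr8:123894776-123895025, with a match to the CArG box in capitals.
Acta1: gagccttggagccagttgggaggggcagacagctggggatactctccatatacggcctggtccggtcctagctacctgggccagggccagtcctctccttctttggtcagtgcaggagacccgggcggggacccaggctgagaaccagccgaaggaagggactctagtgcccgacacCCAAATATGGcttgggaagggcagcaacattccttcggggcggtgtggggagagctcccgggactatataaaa
Windows of 8 of the 10 genes were in the RefSeq table. Counting 250 bases before and 50 after the start on both strands, the CArG box was found in 2 of these 8 genes (*Acta1* and *Myh4*) and in 1.63% of all windows. The MEF2 site was found in 2 (*Myh1* and *Myh4*; 3.19% of all windows), TATAAA in 4 (13.6%) and CANNTG in 6 (72.3%). These are matches of letters and no evidence of binding.

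Counts on genes ranged from 23865507 to 35200685 per pool, which puts 3 counts at 0.0659 to 0.190 cpm (the count divided by the TMM-scaled library size, times 1e6), and this limit covers no error other than counting. The deleted gene, *Hdac3*, was read with 2709 to 3339 counts in floxed pools, against 204 to 666 in H3atKO pools. The pools were not alike in other respects that follow the genotype. Genes of the mitochondrial genome took 6.92 to 12.9% of counts in floxed and 26.9 to 35.3% in H3atKO pools. The deviation of each gene from its own mean over all pools also followed the GC content of transcripts. It rose with GC content in floxed pools (Spearman's rho across genes 0.0969 to 0.800) and fell with it in H3atKO pools (-0.711 to -0.433). These values compare pools with each other, and the relation of the levels themselves to GC content was not tested. The GC content of the 10 muscle genes, 52.6% to 57.0%, was above the median of all tested genes (49.2%). For this reason GC-corrected values are given beside the main results. TMM corrects library sizes for composition and had factors between 0.66 and 1.37.

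**Figure D1:**
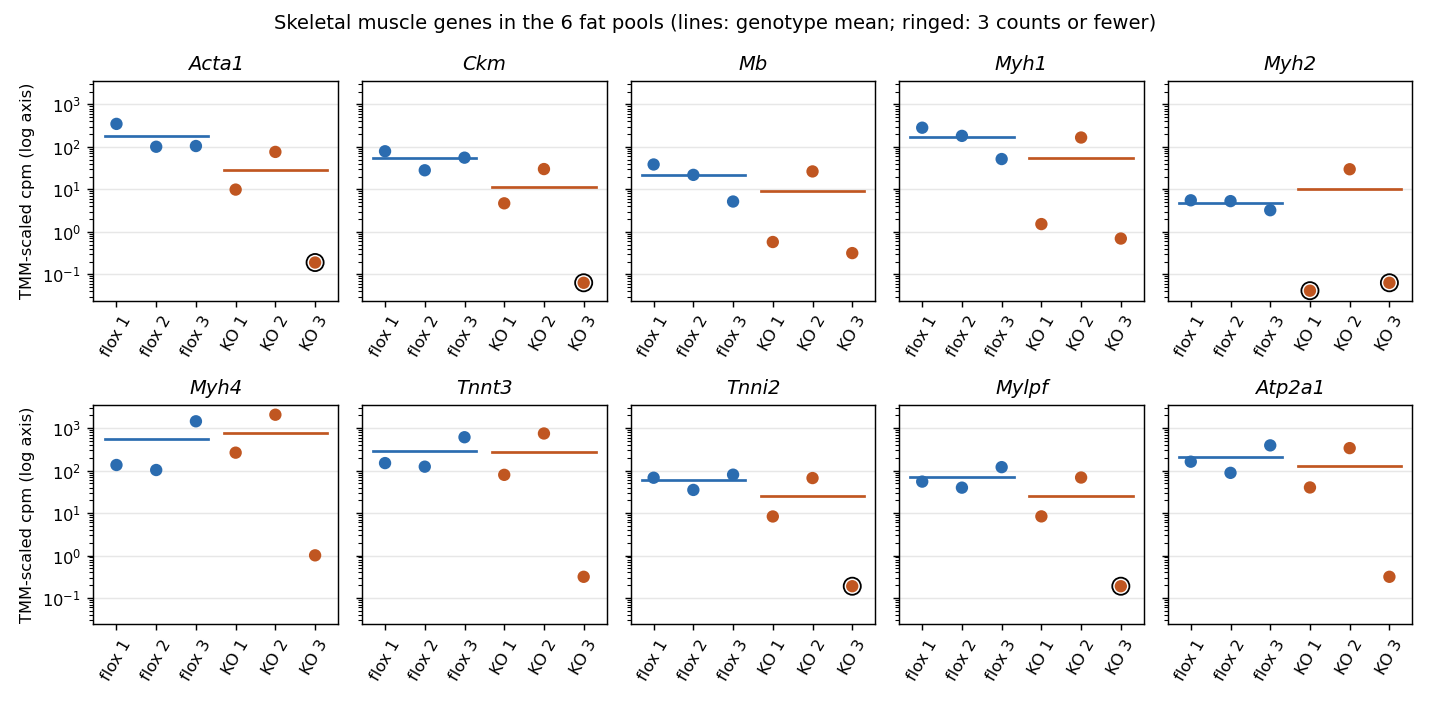
Level of each of the 10 muscle genes in the 6 pools, in TMM-scaled cpm on a log axis, with the genotype mean as a line and ringed points for values that rest on 3 counts or fewer. H3atKO (KO) pool 2 lies within or above the range of the floxed (flox) pools for 9 of the 10 genes, all but *Acta1*, and H3atKO pool 3 is the lowest of the 6 pools for 9 of the 10 genes, the exception being *Myh2*, where H3atKO pools 1 and 3 have 1 count each.

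Muscle RNA was present in 5 of the 6 pools and nearly missing from 1. The 10 genes together took 0.171%, 0.09999% and 0.391% of the counts on genes in floxed pools 1, 2 and 3. In H3atKO pools 1, 2 and 3 they took 0.0384%, 0.244% and 0.000222%. The last value rests on 53 of 23865507 counts (Wilson 95% interval 0.000170 to 0.000290%), and no single gene of the 10 had more than 16 counts there. H3atKO pool 1, the next lowest, had 173 times that share, and floxed pool 3, the highest, 1760 times. The mean share was 0.221% ± 0.152 for floxed and 0.0942% ± 0.131 for H3atKO pools (SD, n = 3 each), so the genotype means lay closer together than the lowest and highest pool within either genotype. After TMM scaling H3atKO pool 2 had the highest sum (3618 cpm) and floxed pool 3 the next (2873 cpm), so the order of these 2 pools depends on the scaling. In whole tissue, fewer muscle fibres and less RNA per fibre cannot be told apart.

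Some pools of 1 genotype differed on all genes of the set at once, and others did not. Between H3atKO pools 2 and 1 the level was higher in pool 2 for all 10 genes, with a median log2 difference of 3.06 (2.67 for *Ckm* to 8.91 for *Myh2*), and of 3.24 after GC correction. Between H3atKO pools 2 and 3 it was also higher in pool 2 for all 10, with a median of 8.30 (6.25 for *Mb* to 11.07 for *Tnnt3*), and of 7.86 after GC correction. Floxed pools 1 and 2 were nearer, with a median of 0.73 toward pool 1. Floxed pool 3 crossed with floxed pool 1, 5 genes being higher in each, and with floxed pool 2, which was higher for 3 genes. H3atKO pool 1 was higher than H3atKO pool 3 for 9 genes. Over all tested genes the medians of the same differences lay within 0.1 of 0. Within genotypes the SD of the 10 genes ran from 2.63 (*Mb*) to 4.27 (*Myh4*) on the log2 cpm scale, against a median of 0.52 over all tested genes, and between 98.6 and 99.95% of the tested genes had a smaller SD than each of the 10.

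Among the myosin heavy chains, *Myh4* (ENSMUSG00000057003, chr11:67238029-67260446) was measured at 135, 103 and 1448 cpm in floxed pools 1 to 3, and at 264, 2068 and 1.01 cpm in H3atKO pools 1 to 3. *Myh1* (ENSMUSG00000056328, chr11:67200052-67224575) was at 283, 182 and 51.8 cpm in floxed and at 1.52, 166 and 0.695 cpm in H3atKO pools. *Myh2* (ENSMUSG00000033196, chr11:67171027-67197517) was the least expressed of the 3, at 5.53, 5.29 and 3.23 cpm in floxed pools, and at 1, 584 and 1 counts (29.8 cpm in pool 2) in H3atKO pools. The IIb and IIx chains did not follow each other. Floxed pools 1 and 2 read more *Myh1* than *Myh4*, whereas floxed pool 3 and H3atKO pools 1 and 2 read mostly *Myh4*, and the genotypes overlapped for all 3 genes.

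Shares within a pool make this independent of library scaling. *Myh4* made up 31.9%, 35.6% and 96.3% of the counts on the 3 adult fast chains in floxed pools, and 99.4%, 91.3% and 57.1% in H3atKO pools, where the last value rests on 28 counts (Wilson 95% interval 39.1 to 73.5%). *Myh1* made up 66.8%, 62.6% and 3.44% in floxed and 0.573%, 7.34% and 39.3% in H3atKO pools. *Myh2* never exceeded 3.57%. In 2 floxed pools the IIb share was below that of every H3atKO pool, but floxed pool 3 lay among the H3atKO pools. The means, 54.6% ± 36.2 in floxed and 82.6% ± 22.4 in H3atKO (SD, n = 3), did not differ beyond their spread (exact permutation test, two-sided, p = 0.3, where 3 pools against 3 allow no p below 0.1). The same exact permutation test gave p = 0.3 for *Myh1* (44.3% ± 35.4 and 15.7% ± 20.7) and p = 0.8 for *Myh2* (1.11% ± 0.821 and 1.63% ± 1.80). Of the 50-base windows of their transcripts, 26.7% in *Myh1*, 26.9% in *Myh2* and 18.9% in *Myh4* occur letter for letter in another gene, the other chains of the cluster included. For windows of 100 bases the values are 9.73%, 9.17% and 3.85%. Reads with more than 1 place were given to no gene, so part of each chain's RNA may be uncounted, and how much depends on the read length, which is not given in the sources used here.

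**Figure D2:**
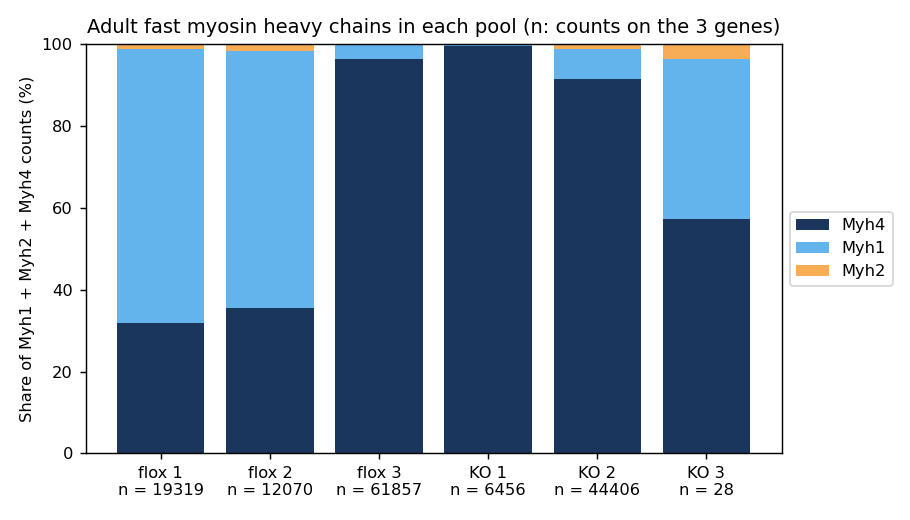
Share of *Myh4*, *Myh1* and *Myh2* in the counts on these 3 genes, in percent, in each of the 6 pools (flox, floxed; KO, H3atKO), with the number of counts below each bar. Floxed pools 1 and 2 hold mostly *Myh1*, floxed pool 3 and H3atKO pools 1 and 2 hold at least 91.3% *Myh4*, and the bar of H3atKO pool 3 rests on 28 counts.

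*Mylpf* (ENSMUSG00000030672, chr7:127208890-127214298), the regulatory light chain that sits on fast myosin, was at 55.1, 39.7 and 121 cpm in floxed and at 8.36, 68.7 and 0.190 cpm in H3atKO pools. H3atKO pool 2 lay within the range of the floxed pools and the other 2 below it.

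On the thin filament, *Acta1* (ENSMUSG00000031972, chr8:123891769-123894751, minus strand), the skeletal alpha actin, was at 348, 101 and 105 cpm in floxed pools and at 9.88, 76.2 and 0.190 cpm in H3atKO pools. It was the only one of the 10 genes with every H3atKO pool below every floxed pool in TMM-scaled cpm. That pattern was shown by 28.6% of all tested genes, and the opposite order by 23.1%. After GC correction it did not hold for *Acta1*. H3atKO pool 2, at 6.98 log2 cpm, was then above floxed pools 1 to 3, at 6.77, 5.72 and 6.66. *Tnnt3* (ENSMUSG00000061723, chr7:142498836-142516009), the troponin T of fast fibres, which ties the troponins to tropomyosin, was at 150, 124 and 610 cpm in floxed and at 79.4, 747 and 0.316 cpm in H3atKO pools. *Tnni2* (ENSMUSG00000031097, chr7:142441808-142444410), the inhibitory troponin of fast fibres, was at 67.9, 35.1 and 80.2 cpm in floxed and at 8.32, 66.7 and 0.190 cpm in H3atKO pools. *Tnnt3* went with *Myh4* in having its 2 highest values in floxed pool 3 and H3atKO pool 2. *Acta1* did not. There were 2.57 and 0.977 *Acta1* counts for each *Myh4* count in floxed pools 1 and 2, and at most 0.188 in each of the other 4 pools. These ratios of raw counts were not corrected for GC content.

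*Atp2a1* (ENSMUSG00000030730, chr7:126445858-126463108, minus strand), the calcium pump of fast fibres, was at 162, 88.5 and 393 cpm in floxed and at 40.1, 338 and 0.316 cpm in H3atKO pools. *Ckm* (ENSMUSG00000030399, chr7:19404776-19422841), the muscle creatine kinase that buffers ATP, was at 78.9, 28.2 and 55.8 cpm in floxed and at 4.69, 30.1 and 0.0632 cpm in H3atKO pools. *Mb* (ENSMUSG00000018893, chr15:77015487-77050670, minus strand), the oxygen-binding myoglobin of oxidative fibres, was at 38.6, 21.95 and 5.18 cpm in floxed and at 0.577, 26.5 and 0.316 cpm in H3atKO pools. In the 2 pools with the highest IIb share *Mb* was low for the level of *Ckm*. It had 0.0928 counts for each *Ckm* count in floxed pool 3 and 0.123 in H3atKO pool 1, against 0.489 and 0.780 in floxed pools 1 and 2, although H3atKO pool 2, at 91.3% *Myh4*, had 0.880. In the genome *Mb* overlaps *Apol6* on the other strand, which had 30223 counts in floxed pool 1 and 888 in H3atKO pool 3. *Atp2a1* likewise overlaps *Rabep2*, with 700 counts in floxed pool 1 and 11 in H3atKO pool 3. The libraries mark strand, but the strand setting of the counting is not given in the sources used here.

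Per kilobase of exon, *Tnnt3* was the most expressed of the 10 genes in 4 pools, with 78.2 and 386 cpm per kb in floxed pools 2 and 3 and 50.2 and 472 in H3atKO pools 1 and 2. *Acta1* led in floxed pool 1, at 227 cpm per kb. *Myh2* was the lowest in all 6 pools. *Mb* led in H3atKO pool 3 at 0.212 cpm per kb, a value of 5 counts.

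The design asks whether loss of *Hdac3* in fat cells changes transcript levels in the pad. For the muscle genes, the fit to all 6 pools gave a negative log2 fold change (H3atKO minus floxed) for all 10, and none passed the test. Limma voom gave a median log2 fold change of -3.31 (-4.68 to -1.64) over the 10, against -0.09 over all tested genes. The median over the 10 was smaller in other fits, at -1.27 with edgeR, -1.18 with DESeq2, -2.24 with sample quality weights, -2.06 with the replicate number as a block and -0.86 with that block and GC correction. At an adjusted p under 0.05 (Benjamini-Hochberg, over all tested genes) limma voom called none of the 10, where 16.5% of all tested genes were called, 7.07% as lower and 9.42% as higher in H3atKO. At an unadjusted p under 0.05 there were 4 of the 10, and 6562 among all 14967. Both DESeq2 and edgeR (quasi-likelihood), which model the counts, called none of the 10 (42.8% and 31.2% of all tested genes) and had 0 at an unadjusted p under 0.05. DESeq2 gave no p-value for *Myh2*, so its result covers the other genes only.

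The widest differences were those of *Acta1*, *Myh1* and *Ckm*. *Acta1* had a mean of 185 ± 142 cpm in floxed and 28.8 ± 41.4 cpm in H3atKO (SD, n = 3), with a log2 fold change of -4.68 (SE 1.59; limma voom, adjusted p = 0.0700). *Myh1* had 172 ± 116 and 56.2 ± 95.4 cpm, with a log2 fold change of -4.58 (SE 1.66; limma voom, adjusted p = 0.0801). *Ckm* had 54.3 ± 25.4 and 11.6 ± 16.2 cpm, with a log2 fold change of -4.20 (SE 1.49; limma voom, adjusted p = 0.0768). In each of these 3 the SD in H3atKO exceeded the mean, pool 2 being far above the other 2. For *Mylpf*, *Tnni2* and *Mb* the log2 fold changes were -3.55, -3.42 and -3.20 (SE 1.52, 1.48 and 1.53), with limma voom adjusted p-values of 0.113, 0.116 and 0.144. For *Atp2a1* and *Tnnt3* they were -3.17 and -2.77 (SE 1.91 and 2.23; limma voom, adjusted p = 0.227 and 0.354). *Tnnt3* had all but equal means, 295 ± 274 and 276 ± 410 cpm. *Myh2* and *Myh4* had higher means in H3atKO, 9.96 ± 17.2 against 4.69 ± 1.26 cpm and 778 ± 1125 against 562 ± 768 cpm, with negative log2 fold changes of -3.08 and -1.64 (SE 1.76 and 2.53; limma voom, adjusted p = 0.205 and 0.630). EdgeR put both above 0, at 1.09 and 0.47. The standard errors of the 10 genes, 1.48 to 2.53, compare with a median of 0.44 over all tested genes.

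The size of these values also depended on single pools. Without H3atKO pool 3 the median over the 10 genes was -1.78, *Myh4* turned to 1.46 and *Tnnt3* to 0.13, and limma voom called none of the 10 (0.718% of all tested genes). Without H3atKO pool 2, in contrast, the median was -5.38, and *Myh1* and *Myh2* were called lower (limma voom, adjusted p = 0.0448 and 0.0431; 3.57% of all tested genes). Without floxed pool 3, *Mb* and *Myh1* were called lower (limma voom, adjusted p = 0.0399 and 0.0373; 44.4% of all tested genes). Library sizes alone in place of TMM moved the median over all tested genes to -0.94, with 306 genes called higher and 5667 lower against 1410 and 1058 with TMM, while the median of the 10 genes minus that of all tested genes was -3.26, against -3.22 with TMM. With library sizes alone limma voom called 5 of the 10 lower (*Acta1*, *Ckm*, *Myh1*, *Tnni2* and *Mylpf*; 39.9% of all tested genes), with adjusted p-values between 0.0226 and 0.0428. With sample quality weights it called *Myh1* lower (limma voom, adjusted p = 0.0318; 56.4% of all tested genes). The replicate numbers were taken as pairs in some alternative fits, not in the main fit, because pools of the same number deviated together over all tested genes. The 10 genes did not show this pairing. The mean of their centred log2 cpm was 2.04, 1.26 and 2.01 in floxed and -1.66, 2.55 and -6.21 in H3atKO pools 1 to 3. With the number as a block limma voom called none of the 10 (53.5% of all tested genes), with 1 at an unadjusted p under 0.05. With the block and without H3atKO pool 3, a fit added after seeing the data in which floxed pool 3 has no partner, *Acta1* was called lower at -2.76 and *Myh4* higher at 2.49 (limma voom, adjusted p = 0.0398 and 0.0188; 53.8% of all tested genes). After GC correction the median was -2.05, and limma voom called none of the 10 (8.5% of all tested genes) and had 0 at an unadjusted p under 0.05.

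**Figure D3:**
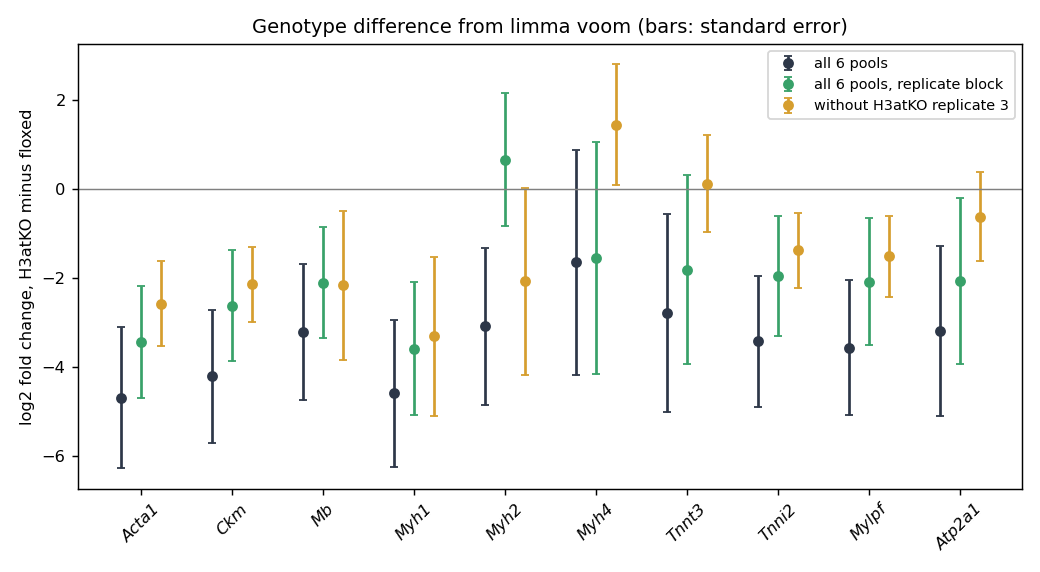
Log2 fold change of each of the 10 muscle genes, H3atKO minus floxed, from limma voom with all 6 pools, with the replicate number as a block, and without H3atKO pool 3, with bars for the standard error. All 10 points of the fit with 6 pools lie below 0, whereas *Myh4* and *Tnnt3* lie above 0 without H3atKO pool 3 and *Myh2* with the block.

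Other genes of skeletal muscle fibres were read from 5 lists, on the thick filament, the thin filament, the Z-disc and sarcolemma, excitation and calcium, and energy supply. Beside the 10 they hold 63 genes, of which 60 were tested. None of the 60 was called higher and 1 was called lower, where 9.42% and 7.07% of all tested genes were. A negative log2 fold change was found for 58, and the median of the 60 was -1.92, against -0.09 over all tested genes. The gene called was *Sln*, sarcolipin, a small inhibitor of the calcium pump that brown and beige fat can also express. It had 45, 111 and 31 counts in floxed and 0, 2 and 0 counts in H3atKO pools, with a log2 fold change of -4.86 (SE 1.25; limma voom, adjusted p = 0.0423), a fitted size that depends on how zero counts are treated. With the replicate block 5 of the 60 were called lower and none higher, where that fit called 28.7% of all tested genes lower and 24.8% higher, so these lists held a smaller share of calls than all genes did. The 5 were *Sln*, *Des*, the intermediate filament of muscle, *Hspb7*, a small heat shock protein, *Klhl40*, which stabilises thin filament proteins, and *Mybph*, a myosin-binding protein. *Des* was at 54.6, 22.2 and 23.9 cpm in floxed and at 3.79, 14.3 and 0.506 cpm in H3atKO pools (log2 fold change with the block -2.72; limma voom, adjusted p = 0.0362). Without H3atKO pool 3, 32 of the 60 had a negative log2 fold change, their median was -0.21 and none was called (0.718% of all tested genes). The median of these lists thus also depended on that pool.

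By list, the most expressed genes outside the 10 were uneven between pools as well, to different degrees. On the thick filament *Ttn*, titin, the molecular spring of the sarcomere, was at 107, 136 and 627 cpm in floxed and at 153, 1576 and 14.4 cpm in H3atKO pools (log2 fold change -0.46, SE 1.56; limma voom, adjusted p = 0.833). On the thin filament *Tpm1*, a tropomyosin that smooth muscle and other cells also use, was at 181, 145 and 439 cpm in floxed and at 114, 660 and 47.7 cpm in H3atKO pools, and *Neb*, nebulin, the ruler of that filament, was at 43.8, 47.9 and 380 cpm in floxed and at 85.9, 885 and 4.49 cpm in H3atKO pools. In the Z-disc list *Xirp2*, an actin-binding repeat protein, was at 13.0, 12.1 and 110 cpm in floxed and at 26.8, 282 and 0.253 cpm in H3atKO pools. These 4 were highest in H3atKO pool 2, then in floxed pool 3, and lowest in H3atKO pool 3. *Pvalb*, the calcium buffer of IIb fibres, was at 32.5, 20.0 and 220 cpm in floxed and at 25.5, 256 and 0.253 cpm in H3atKO pools. *Pygm*, the muscle glycogen phosphorylase, was at 47.6, 29.4 and 148 cpm in floxed and at 23.3, 163 and 1.26 cpm in H3atKO pools, and both kept that order of the 3 pools. *Actn3*, the Z-disc actinin of fast fibres, and *Actn2*, which all fibres share, were compared after their values had been seen. *Actn3* made up 53.7%, 31.4% and 94.3% of the counts on both in floxed and 94.6%, 88.2% and 66.7% in H3atKO pools (two-sided exact permutation test, p = 0.3), and the last share rests on 3 counts.

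Muscle genes were not all missing from H3atKO pool 3. Among the 59 other genes with at least 100 counts over the remaining 5 pools, that pool held a median of 1.02% of their mean, 29 genes were at 1% or less and 28 had at most 3 counts. For the 10 genes the value ran from 0.0924% to 1.70%. In 10 of the 59 it exceeded 10%, with 150% for *Ldb3*, 97.8% for *Dmd* and 52.6% for *Myom3*, followed by *Phkg1*, *Adssl1*, *Jph1*, *Mybph*, *Tpm1*, *Clcn1* and *Myl1* down to 10.1%. Of these, *Mybph* had 2 counts in that pool and *Clcn1* had 6, so their percentages rest on values near the floor. *Ldb3*, a Z-disc protein, had 1239 counts in that pool, and *Dmd*, dystrophin, was at 18.9 to 52.8 cpm in all 6 pools. Of the 59 genes 10 have a GC content under 47%, and 7 of these had at most 10 counts in H3atKO pool 3, while *Dmd*, *Jph1* and *Neb* had 507, 58 and 71. Relative to the mean of the other 5 pools these were 97.8%, 17.8% and 1.56%, so *Neb* was about as low as the 10 genes. *Trdn*, triadin, with a GC content of 36.8%, had 478, 454 and 4318 counts in floxed pools, 710 and 7283 in H3atKO pools 1 and 2, and 8 in pool 3, and *Mylk4*, *Klhl41*, *Myot*, *Xirp2*, *Smpx* and *Sln* are the other 6.

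**Figure D4:**
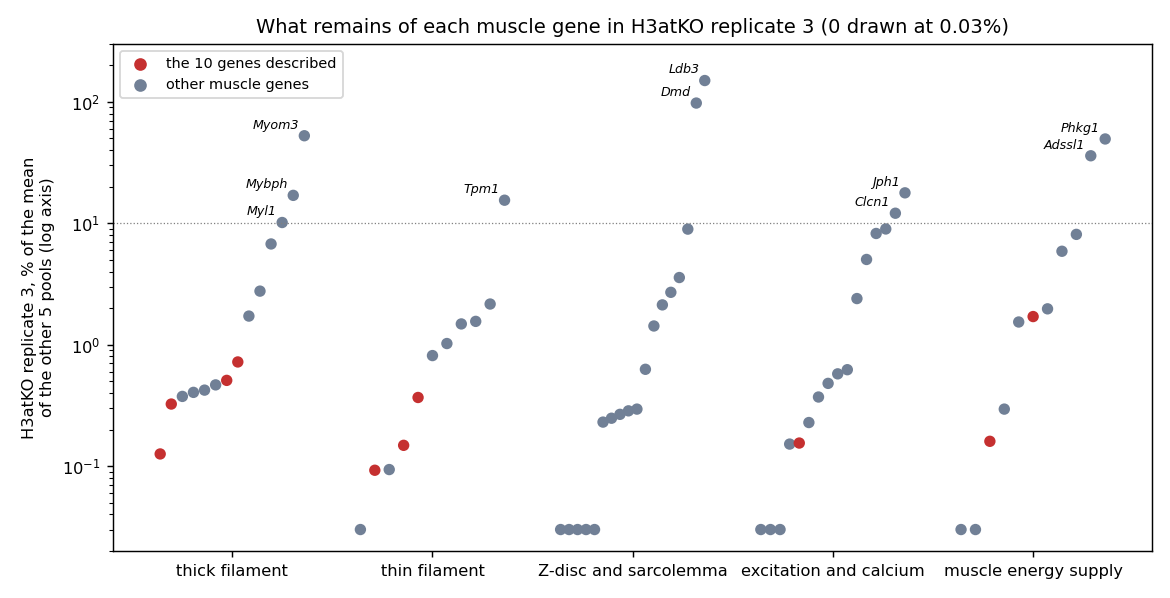
Level of each muscle gene in H3atKO pool 3 as a percentage of its mean over the other 5 pools, on a log axis, by list, for genes with at least 100 counts over those 5 pools and with 0 drawn at 0.03%. The 10 genes (red) lie between 0.0924% and 1.70%, and the labelled genes above the dotted line exceed 10%.

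The slow-fibre list summed to 78.6 to 129 cpm in floxed and 66.6 to 66.7 cpm in H3atKO pools, of which *Tpm3*, a tropomyosin that many other cells express, made up at least 80.8% in each pool. The other genes of the list summed to 1.39 to 21.3 cpm. Of its 10 genes 8 were tested, none was called by limma voom with or without the replicate block, and their median log2 fold change was -0.65. *Myh7*, the slow myosin heavy chain, had 324, 0 and 0 counts in floxed pools and 0, 34 and 0 in H3atKO pools, or 1.65% of the adult myosin counts in floxed pool 1 and at most 0.0765% in the others. *Myl2*, the slow regulatory light chain, had 182, 0 and 3 counts in floxed pools and 0, 64 and 0 in H3atKO pools, the same pools being above the floor. *Tnnt3* made up 97.9 to 99.9% of the troponin T counts of fast and slow fibres in the 5 pools with more than 6 such counts, and 5 of 6 counts in H3atKO pool 3. The means, 99.3% ± 1.14 and 94.3% ± 9.52 for floxed and H3atKO (SD, n = 3), did not differ beyond their spread (two-sided exact permutation test, p = 0.5). *Tnni2* made up 97.9 to 99.9% of the troponin I counts in the same 5 pools.

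Some genes of muscle energy supply are also used by brown and beige fat, and these did not all follow the 10. *Cox8b*, a subunit of cytochrome oxidase, was at 22.9, 5.39 and 5.64 cpm in floxed and at 22.7, 19.4 and 6.26 cpm in H3atKO pools. *Fabp3*, the heart-type fatty acid carrier, was at 2.85, 1.15 and 0.996 cpm in floxed and at 8.11, 4.89 and 0.822 cpm in H3atKO pools. *Slc25a4*, the adenine nucleotide carrier, was at 153 to 183 cpm in floxed and 160 to 385 cpm in H3atKO pools. In H3atKO pool 3, *Cox8b* was at 41.1% and *Fabp3* at 22.8% of the mean of the other 5 pools. *Cox7a1*, another subunit of cytochrome oxidase, was at 21.3%, with 10 counts. These genes were thus also low in that pool, but less so than the 10 genes, which reached at most 1.70%. *Slc25a4*, at 266 cpm, was above all floxed pools. *Ckmt2*, the mitochondrial creatine kinase, instead had 215, 151 and 330 counts in floxed pools and 71, 864 and 1 in H3atKO pools. Of the 6 genes of this list *Sln* alone was called, lower, and with the replicate block *Fabp3* was called as well, higher (log2 fold change 1.42; limma voom, adjusted p = 0.0366).

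Markers of other cells were read in the same pools, and their part in the differences was not tested. Calls are from limma voom without the replicate block, followed by those with it. Over all tested genes 7.07% were called lower and 9.42% higher in H3atKO without the block, and 28.7% and 24.8% with it. Of the heart list *Myh6*, *Nppa* and *Nppb* had 0 counts in all 6 pools, 3 of its 9 genes were tested with none called (2 lower with the block, *Tnni3* and *Myl4*), and it summed to 7.15 to 21.8 cpm in floxed and 1.52 to 4.61 cpm in H3atKO pools. Of the myogenic factors and developmental myosins 3 of 10 were tested and none was called (1 higher with the block, *Mef2c*). Their sums were 34.2 to 96.1 cpm in floxed and 88.0 to 165 cpm in H3atKO pools, of which *Mef2c*, which many other cells express, made up at least 94.1% in each pool. *Myf6*, a myogenic factor of mature fibres, was at 1.16, 0.673 and 3.45 cpm in floxed and at 1.40, 8.62 and 0 cpm in H3atKO pools. Of the smooth muscle list 4 of 9 tested genes were called lower in H3atKO (*Myh11*, *Tagln*, *Lmod1* and *Synpo2*; 8 with the block), and its summed level was 316 to 1858 cpm in floxed and 166 to 185 cpm in H3atKO pools. In H3atKO pools that sum was mostly *Synpo2* and *Mylk* (74.0 to 86.8%), and the other 8 genes were each lowest in pool 3, summing to 43.4, 48.0 and 21.9 cpm in H3atKO pools 1 to 3. *Acta2*, the smooth muscle actin, was at 930, 535 and 40.2 cpm in floxed and at 11.8, 14.9 and 7.27 cpm in H3atKO pools. H3atKO pool 3, with least skeletal muscle, therefore also had least of these smooth muscle genes, by a smaller factor. In the tendon and cartilage list 1 of 3 was called lower (*Comp*), with and without the block, with sums of 7.84 to 8.85 and 1.73 to 3.67 cpm. In the epithelium and skin list 0 of 5 were called in either fit, with sums of 2.33 to 8.09 and 3.47 to 18.7 cpm. The adipocyte list summed to 15023 to 38946 cpm in floxed and 16077 to 27487 cpm in H3atKO pools. *Fabp4* alone took 10341 to 19231 cpm of these sums in floxed and 12918 to 22051 cpm in H3atKO pools. Of its 10 genes 1 was called (*Cfd*, lower; 5 lower with the block), and 9 had a negative log2 fold change (median -1.53). *Cfd* was at 6343, 1970 and 990 cpm in floxed and at 188, 229 and 70.4 cpm in H3atKO pools. Of the brown fat list 3 of 7 were called higher (*Dio2*, *Elovl3* and *Otop1*; 6 with the block), with sums of 37.6 to 92.4 cpm in floxed and 340 to 1169 cpm in H3atKO pools. The B and T cell list was highest where muscle was lowest, with sums of 455 and 379 cpm in H3atKO pools 3 and 1, against 7.41 to 136 cpm in the other 4, and 1 of 10 was called (*Trac*, higher; 6 higher with the block).

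**Figure D5:**
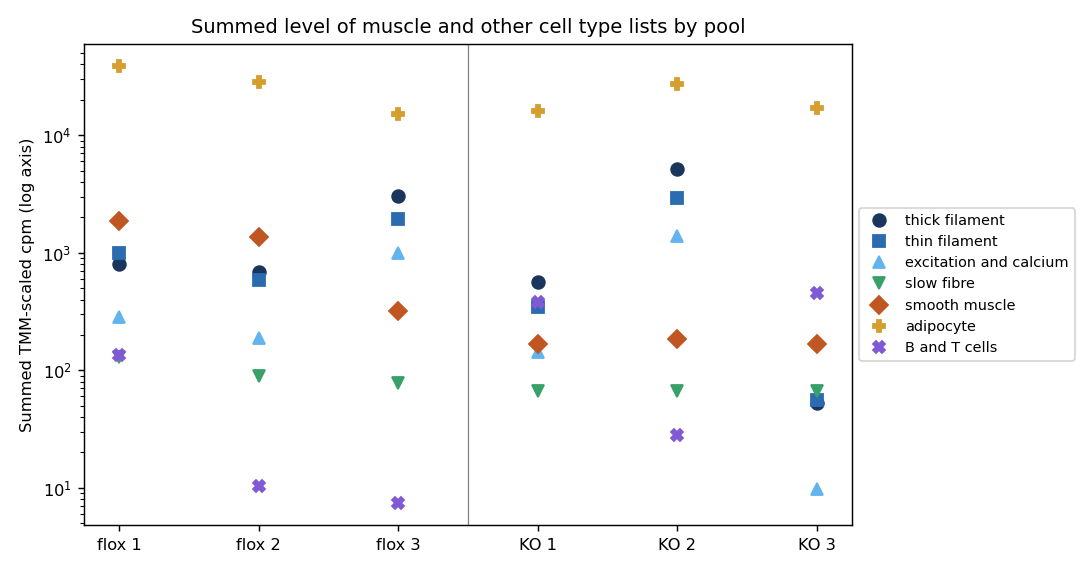
Summed level of 7 gene lists in each of the 6 pools (flox, floxed; KO, H3atKO), in TMM-scaled cpm on a log axis. The filament and calcium lists are highest in H3atKO pool 2 and lowest in H3atKO pool 3. The smooth muscle sum, at 166 to 185 cpm in H3atKO pools, is mostly *Synpo2* and *Mylk* there, and the slow fibre sum is mostly *Tpm3*. The adipocyte sum, at or above 15023 cpm in every pool, includes at least 10341 cpm of *Fabp4* in each, and other genes of that list vary more.

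The genes outside the set whose level followed the 10 most closely were found by Pearson's r with the mean of the 10 over the 6 pools, as a description, since 1 pool lies far below the rest. The first 9 were *Eno3* (r = 0.996), *Pgam2* and *Sptb* (0.993 each), *Alpk3*, *Eef1a2*, *Tpm2*, *Ak1*, *Stac3* and *Jph2* (0.990). *Eno3* and *Pgam2* are glycolytic enzymes of muscle, *Stac3* and *Jph2* serve the coupling of excitation to calcium release, *Tpm2* is a tropomyosin of the thin filament, *Ak1* an adenylate kinase, *Eef1a2* an elongation factor of muscle and nerve, *Alpk3* a kinase of muscle, and *Sptb* a spectrin of red cells and muscle. *Eno3* had 1758, 1157 and 1975 counts in floxed pools and 249, 1138 and 34 in H3atKO pools. Without H3atKO pool 3 the r of these 9 genes lay between 0.946 and 0.993. Of the 100 closest genes, 27 belong to the 5 muscle lists, and of the 88 genes with r above 0.95, 24 do. These lists hold 60 tested genes beside the 10, among 14967 tested. Genes outside them include genes of muscle, such as *Alpk3* and *Eef1a2*, so 27 is no count of all muscle genes among the 100.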

How the data were processed

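The authors pooled RNA within each genotype, made stranded poly(A)-selected libraries, trimmed the reads with cutadapt 1.3, aligned them to GRCm38 with STAR 2.4.2a and counted them on genes with HTSeq 0.6.1, versions that the submitters' processing notes give. They deposited raw counts for 46517 genes, 1 file per pool, not normalized. The 5 tally lines at the end of each file were left out. Reads with more than 1 place made up 28.3 to 35.2% of all tallied alignments in floxed and 43.8 to 45.5% in H3atKO pools and were given to no gene.

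Symbols, positions, exon lengths and GC content came from GENCODE M21 (GRCm38), which matched 46005 identifiers. A gene was kept if any pool reached 1 cpm for it, as in the study's methods, and scaled with TMM (edgeR 4.0.16). The contrast H3atKO minus floxed was fitted with voom in limma 3.58.1 (R 4.3.3), with Benjamini-Hochberg adjustment over all 14967 tested genes and a call at an adjusted p under 0.05. P-values measure the spread between pools. For shares, genotypes were compared by exact permutation of the pools, two-sided. The fits were tested on simulated counts. The alternatives, DESeq2 1.42.0 among them, are named in the closing section. For the GC correction a loess curve on GC content (span 0.3) was subtracted from each pool's voom values. Because GC content orders the genotypes, the correction also removes any effect of genotype that follows it.

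The labels give both genotypes the replicate numbers 1 to 3. Pools of the same number deviated together from their genotype means (r = 0.510, 0.389 and 0.264 over 14967 genes), and 6 of 6 pools correlated best with their own number. The numbers were therefore taken as pairs in alternative fits, on the evidence of these same data, and the main fit holds genotype only. Why pools of 1 number deviated together was not tested.

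The 10 genes and all lists were chosen with earlier results of these data known. Named genes are the 10, examples from the genes of each list that passed the test or otherwise were most expressed, and the 10 genes outside the set with the highest r. Of the latter 1 gene, and 1 marker list are not reported here. The ratios of 1 gene to another, the shares of *Tnni2*, *Actn3* and *Myh7*, and the genes left in H3atKO pool 3 were chosen after their values were seen.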

Additional observations from a re-analysis of the deposited data

How the results depend on the processing

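Of 172 log2 fold changes of the 10 genes under other settings, 149 kept their direction and their side of the threshold, 11 passed the threshold that they had missed and 12 changed sign, and so did 2 differences in share. *Myh2* turned to 1.09 with edgeR, 1.19 with DESeq2, 0.67 with the replicate block, 1.64 with block and GC correction, and 0.94 with block and without H3atKO pool 3. *Myh4* turned to 0.47 with edgeR, 0.53 with DESeq2, 0.97 with quality weights, 1.46 without H3atKO pool 3, and 2.49 with the block as well. *Tnnt3* turned to 0.13 without H3atKO pool 3 and to 0.67 with the block as well. Without H3atKO pool 3 the difference in share turned to -0.449 points for *Myh2* and 0.563 for *Tnnt3*. Genes called higher and lower numbered 1410 and 1058 in the main analysis, 1916 and 2749 with edgeR, 2935 and 3465 with DESeq2, 306 and 5667 with library sizes alone, 1575 and 1864 with at least 10 counts in every pool, 3717 and 4290 with the replicate block, 4003 and 4440 with quality weights, 807 and 465 with GC correction, and 3709 and 4317 with the block and without H3atKO pool 3. RLE factors, leaving out genes of the mitochondrial genome, no low count filter, and the block with GC correction kept both numbers within 1.5 times, and counts divided by exon length (myosin shares) and the share of counts on nuclear genes kept their directions. With each pool left out in turn the numbers ranged from 1 to 2729 and from 0 to 3828, both lowest without floxed pool 2. Of the 10 genes 5 were called lower with library sizes alone and 1 with quality weights, and with the block and without H3atKO pool 3 there was 1 lower and 1 higher. With each pool left out 0 to 2 were called lower and 0 higher, the median log2 fold change ran from -5.38 to -1.78, the difference in *Myh4* share from 16.7 to 48.9 points, that in *Myh2* share from -0.449 to 1.33, that in *Tnnt3* share from -7.69 to 0.563, and that in the share of all counts from -0.201 to -0.0415 points. Leaving out 1 pool, *Myh4* ran from -3.71 to 1.46 and *Tnnt3* from -5.26 to 0.13. The replicate block changed no call among the 10. The causes of these changes were not tested. At least 10 counts in every pool keeps only *Myh1* and *Myh4* of the 10, and DESeq2 gave neither a p nor an adjusted p for *Myh2*.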
